A study of Mus musculus with 4 samples.

Results

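The control compound GSK-J5 was compared with DMSO to see which transcripts differed when the control ester was present by itself. The comparison is the 1.88 µM GSK-J5 array minus the DMSO array, over 13314 of the 22180 genes that have a probe set with a single gene symbol. A gene was counted when its mean over the 4 arrays of the series reached the 40th percentile of these genes, 6.585 on the log2 scale, and the brightest probe set on average stood for a gene with several. At that limit 4930502A04Rik, with a mean of 6.585, was counted, and Srsy, with 6.5825, was not.

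The cells were R1, a mouse embryonic stem cell line, separated from their feeder cells and differentiated for 18 h as embryoid bodies, the floating aggregates in which stem cells begin to form early lineages. LIF, the cytokine that keeps them undifferentiated, had been withdrawn in every treatment. The 4 treatments were EB medium only, DMSO in EB medium, 1.88 µM GSK-J5 in EB medium and 1.88 µM GSK-J4 in EB medium, and total RNA was taken after dissociation with trypsin. Each treatment had 1 array, all from 1 cell line, so no difference below has a replicate check, an error or a p-value. The labels call GSK-J5 a vehicle compound and do not give the amount of DMSO or state whether the compounds were dissolved in it.

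GSK-J4 enters cells as an ethyl ester and is cleaved there to GSK-J1, an inhibitor of the KDM6 demethylases that act on trimethylated lysine of histone H3. GSK-J5 is the ester of GSK-J2, in which the pyridine nitrogen is placed differently and which has little activity on these enzymes, so it serves as a control for effects of the ester and scaffold. Cells short of amino acids, or with other stresses sensed by eIF2 kinases, slow general translation and make more of the transcription factor ATF4. ATF4 then raises genes that import amino acids, synthesise them and charge them onto tRNA.

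The array medians over all probe sets lay between 6.63 and 6.65. Stem cell transcripts were high on each array: Sox2 read 12.93 to 13.02, Nanog 13.05 to 13.20, the REX1 gene Zfp42 12.67 to 12.78 and Pou5f1 9.69 to 9.81. Of 16 measured feeder fibroblast markers 10 passed the filter: Col1a1, Col1a2, Thy1, Acta2, Thbs1, Fn1, Vim, Fbln1, Pdgfrb and Tagln. Col3a1, Dcn, Lum, Postn, S100a4 and Pdgfra were below it. Fn1, Vim and Fbln1 were the brightest, and early embryoid bodies also express Fn1 and Vim. The summed log2 level of the fibroblast list was 119.63 in medium, 120.47 in DMSO and 119.93 in GSK-J5, and its median GSK-J5 minus DMSO difference was 0.025. Whether residual feeder cells were present was not tested. Of 9 blood and endothelial markers 4 passed, and the list's median difference was −0.01. In such bulk RNA, fewer cells of a type and less RNA per cell cannot be told apart.

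GSK-J5 differed little from DMSO. By 1.5-fold (0.585 on the log2 scale) 7 genes were higher, 0.0526% of the 13314, and 16 were lower, 0.12%. Only Tcl1b2 passed 2-fold (0.00751%). The DMSO and medium arrays, neither of which held a GSK compound, differed from each other by 1.5-fold in 16 genes upward (0.12%) and 5 downward (0.0376%), 0.158% together, beside 0.173% together for GSK-J5 minus DMSO. The 2 comparisons share the DMSO array. The SD of the differences over all counted genes was 0.133 for GSK-J5 minus DMSO, 0.14 for DMSO minus medium and 0.132 for GSK-J5 minus medium. For GSK-J4 minus DMSO it was 0.305, with 518 genes (3.89%) higher by 1.5-fold and 727 (5.46%) past it in either direction. Between GSK-J5 and DMSO 63.7% of genes lay within 0.1 on the log2 scale, and the median difference was 0.01. Set against medium, GSK-J5 had 12 genes higher (0.0901%) and 13 lower (0.0976%).

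**Figure D1:**
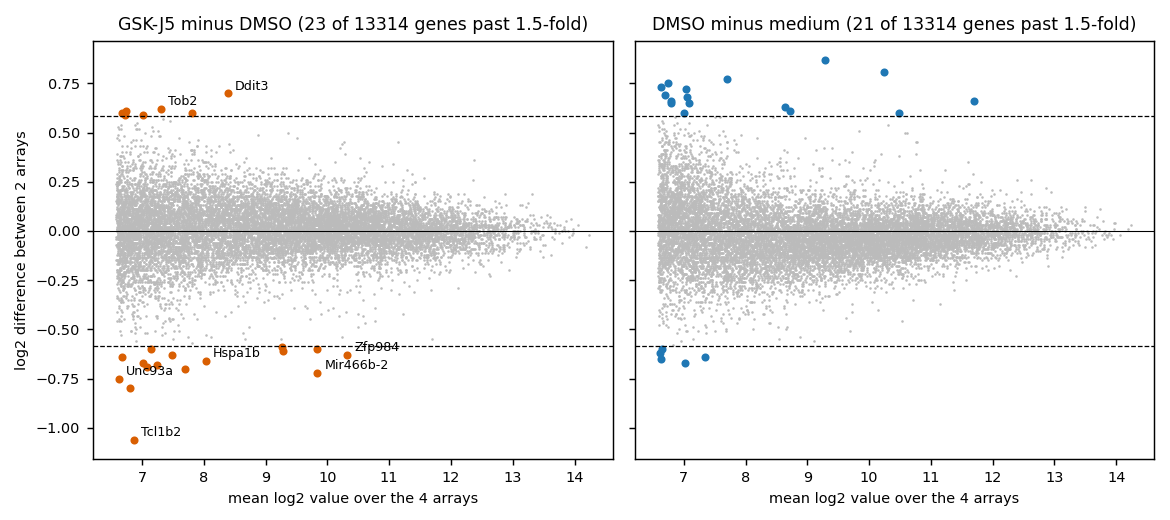
Log2 difference between arrays (y axis) against the mean log2 value over the 4 arrays (x axis) for 13314 genes, with 1 array per treatment; the left panel shows GSK-J5 minus DMSO and the right panel DMSO minus medium. Dashed lines mark 1.5-fold and coloured points the 23 and 21 genes past it; both clouds are widest among dim genes.

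The scatter depended on brightness. With the counted genes divided by level into 5 bins of nearly equal size, the SD of GSK-J5 minus DMSO was 0.18 in the dimmest bin and 0.082 in the brightest, beside 0.197 and 0.077 for DMSO minus medium. The dimmest bin held 5 of the 7 higher and 8 of the 16 lower genes, and the brightest none. The 23 genes had a median level of 7.25, against 9.03 over all counted genes. Among the 23, 12 (52.2%) were protein-coding and 4 (17.39%) were miRNA genes, against 93.3% and 1.04% of all counted genes.

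The called genes also leaned on the DMSO array. In all 7 higher genes DMSO read below medium, and in 15 of the 16 lower genes DMSO read above medium. GSK-J5 lay above both other controls in 6 of the 7, with Ly6g5c the exception, and below both in 14 of the 16. These genes were chosen by their distance from DMSO, so this position is largely set by the choice and is no support. In 4 of the 7 the DMSO value, and in 3 of the 16 the GSK-J5 value, was under the filter level, so those sizes are not exact. Over all counted genes GSK-J5 lay above both in 29.7% and below both in 30%. By at least 1.5-fold GSK-J5 lay above both in no gene and below both in 4 (0.03%): Tcl1b2, Unc93a, Mir466b-2 and Hspa1b. Mir466b-2 met this by its brightest probe set only. The DMSO array, set against the other controls in the same way, gave 3 above (0.0225%) and 1 below (0.00751%), and the medium array 2 above (0.015%) and 3 below (0.0225%).

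Ddit3, which encodes the stress transcription factor CHOP, was the highest gene. It read 7.88 in medium, 7.50 in DMSO, 8.20 in GSK-J5 and 9.96 in GSK-J4, so GSK-J5 stood 0.70 above DMSO and 0.32 above medium. GSK-J5 was therefore the highest of the 3 controls, and the GSK-J4 array was further above it. Tob2, an antiproliferative gene, read 7.18, 7.02, 7.64 and 7.36 in the same order, with GSK-J5 the highest of all arrays. Its relatives did not share the difference: Tob1 was 0.16 lower in GSK-J5 than in DMSO, and Btg1 and Btg2 differed by 0.00 and 0.10.

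Rnu3a, a small nucleolar RNA gene, read 7.89, 7.55, 8.15 and 7.63, and GSK-J5 was again the highest. Try4, a trypsin gene, read 6.86, 6.57, 7.16 and 6.30, with DMSO and GSK-J4 under the filter level. Ly6g5c read 7.05, 6.38, 6.97 and 7.69, so its difference of 0.59 from DMSO turned to −0.08 against medium. Ly6g5c and Try4, both at 0.59, were just inside the limit of 1.5-fold, and Mir505, at 0.57, was just outside. Gm13056, an unnamed transcript at 0.60, was the remaining higher gene besides Mir423.

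Below 1.5-fold, the highest genes included Stc2, a secreted glycoprotein gene, which read 8.45 in medium, 8.29 in DMSO and 8.78 in GSK-J5 and was 1.55 higher in GSK-J4 than in medium. Cyb5r2, a cytochrome b5 reductase gene, read 6.26, 6.01, 6.54 and 7.62, so the 3 controls lay under the filter level. Bcl2, the antiapoptotic gene, was 0.51 higher in GSK-J5 than in DMSO by its brightest probe set, and 0.46 lower by a dimmer one. For Slc22a23 and Cox4i2 the GSK-J5 values, 7.06 and 7.37, were within 0.02 of medium at 7.07 and 7.39, while DMSO read 6.56 and 6.84.

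Tcl1b2, a relative of the Tcl1 oncogene, was the lowest gene, reading 7.0 in medium, 7.44 in DMSO, 6.38 in GSK-J5 and 6.65 in GSK-J4. Both compound arrays read below medium and DMSO, and the GSK-J5 value lay under the filter level, so the size is not exact. In the same family Tcl1, at 11.29 in DMSO and 11.48 in GSK-J5, was higher by 0.19, and Tcl1b1 was lower by 0.24. The probe sets of such close relatives may share sequence, which was not examined. Unc93a read 6.88, 7.04, 6.29 and 6.30, with both compound arrays under the filter level.

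Hspa1b, which encodes the inducible chaperone HSP70, read 8.42, 8.31, 7.65 and 7.73. Its near-identical neighbour Hspa1a read 7.0, 6.75, 6.36 and 6.93, and whether array probes separate the pair is uncertain. GSK-J5 was the lowest array for both genes, while GSK-J4 was low for Hspa1b alone. Of 15 measured heat shock genes, 12 were lower and 3 higher in GSK-J5 than in DMSO by some amount, where 43.8% of all counted genes were lower and 52.1% higher. The list's median was −0.07, but against medium the median was 0.00. Hspa8, the constitutive HSP70 gene, read 13.46, 13.56 and 13.49 in the controls.

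Rps13, a ribosomal protein gene with many pseudogenes, read 7.47, 8.24, 7.54 and 7.53. DMSO stood alone there, and the difference of −0.70 turned to 0.07 against medium. Zfp984 read 10.24, 10.78, 10.15 and 10.08, with DMSO again apart from the rest. Sycp1, a gene of the meiotic synaptonemal complex, read 7.18, 7.37, 6.69 and 7.75, and here the compounds lay on opposite sides of the other controls. Nanp, a phosphatase of sialic acid synthesis, read 9.46, 9.49, 8.90 and 9.18, and its second probe set differed by −0.18. Nanp, at −0.59, was just inside 1.5-fold and Gm3604, at −0.57, just outside. Besides the miRNA genes below, the remaining 6 of the 16 were unnamed transcripts.

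**Figure D2:**
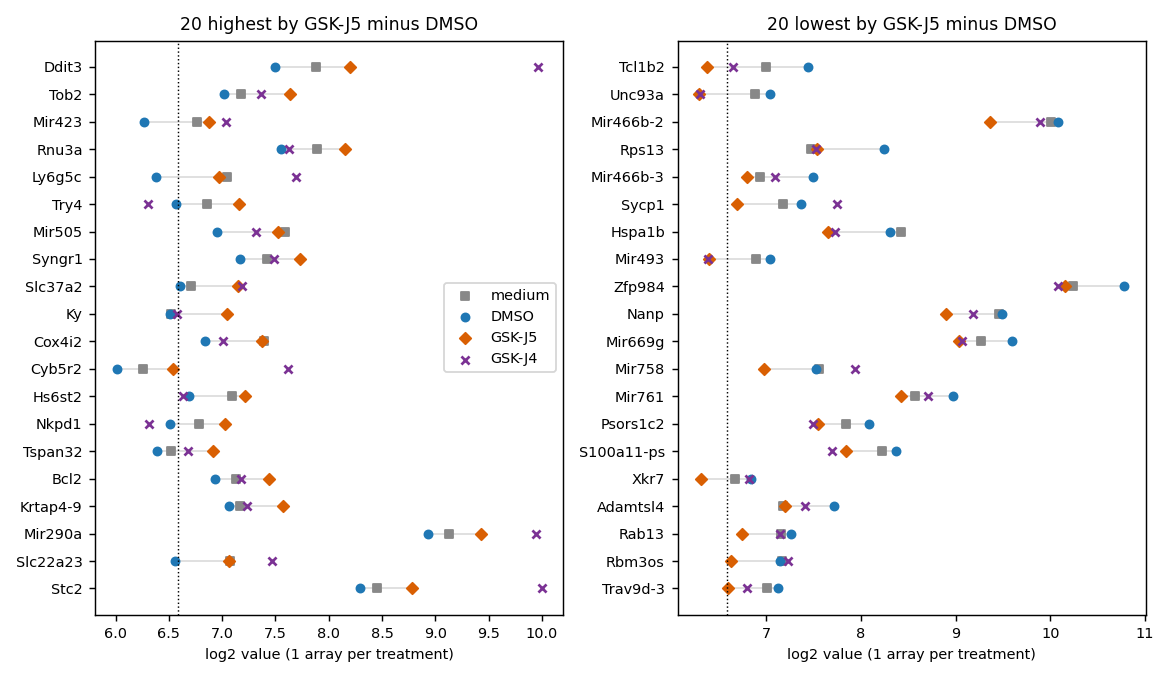
Log2 values (x axis, 1 array per treatment) of the 20 highest (left) and 20 lowest (right) named genes by GSK-J5 minus DMSO, with unnamed transcripts passed over; the dotted line is the filter level of 6.585. Ddit3 and Stc2 rank medium, GSK-J5 and GSK-J4 in rising order, while for Rps13 and Zfp984 the DMSO value stands apart.

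MiRNA genes made up 4 of the 23. miRNAs pair with messenger RNAs mainly through a seed, bases 2 to 8 of the mature strand. Mature sequences are shown because the probe sets named for them were among the largest differences; capitals mark the seed, and both arms are given since the form of the RNA that the probe sets read is not known here. They come from RefSeq (GRCm38.p6), which matched 9 of the 13 named miRNA genes. Mir466b-2, Mir466b-3 and Mir669g were among those without an entry.
mmu-miR-423-5p: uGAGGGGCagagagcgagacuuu
mmu-miR-423-3p: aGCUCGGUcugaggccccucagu
mmu-miR-290a-5p: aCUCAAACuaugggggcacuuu
mmu-miR-290a-3p: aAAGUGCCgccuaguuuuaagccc
mmu-miR-493-5p: uUGUACAUgguaggcuuuc
mmu-miR-493-3p: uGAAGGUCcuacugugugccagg

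These 6 strands share no seed. Mir423 read 6.76 in medium, 6.27 in DMSO, 6.88 in GSK-J5 and 7.04 in GSK-J4, with DMSO under the filter level. Mir290a, of a cluster abundant in mouse embryonic stem cells, read 9.13, 8.93, 9.43 and 9.94, so GSK-J5 lay 0.30 above the nearer of medium and DMSO. Mir493 read 6.89, 7.04, 6.40 and 6.39, low with both compounds. Mir466b-2 read 10.01, 10.08, 9.36 and 9.89, and Mir466b-3 read 6.94, 7.49, 6.80 and 7.09. The other 6 probe sets of Mir466b-2 carried identical values, 9.05, 9.42, 8.85 and 9.21, so they are not separate measurements. Their difference from DMSO was −0.57, and they did not reach 1.5-fold against either DMSO or medium.

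Amino acid response genes lay slightly above both other controls in GSK-J5 in most cases, a pattern already known from earlier results of these arrays. They were divided into 6 lists with 60 measured genes, of which 58 passed the filter; the filter mean includes the GSK-J4 array, where many of them are high. The median GSK-J5 minus DMSO difference over the 60 was 0.12, beside 0.01 over all counted genes. GSK-J5 lay above both DMSO and medium in 38 of the 58 (65.5%), against 29.7% of all counted genes, and below both in 7 (12.1%, against 30%). Vldlr and Inhbe passed only through their high GSK-J4 values. With the filter mean taken over medium, DMSO and GSK-J5 alone, a choice made after seeing the data, 36 of 56 (64.3%) lay above both, against 29.7% of all genes so counted. DMSO lay below both others in the same number, 38 (65.5%), against 39.1% of all counted genes. Against medium the median was 0.055, and it was −0.055 for DMSO minus medium and 0.545 for GSK-J4 minus DMSO. Only Ddit3 was 1.5-fold higher in GSK-J5 than in DMSO, as were 0.0526% of all counted genes. In GSK-J4 minus DMSO 28 of the 58 were 1.5-fold higher, against 3.89% of all counted genes. Vldlr and Inhbe, which passed the filter only through GSK-J4, are among these 28.

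Transcription factors of the pathway did not shift together. Atf4 itself, which is controlled largely by translation, read 9.32, 9.35, 9.28 and 9.91, so GSK-J5 was the lowest array. Trib3, a pseudokinase that restrains ATF4, read 8.40, 8.46, 8.70 and 10.72, above both controls by 0.24. Nupr1, a stress-induced regulator, read 7.53, 7.41, 7.51 and 10.03, so GSK-J5 lay within the controls. Cebpb was above both by 0.10, Atf3 lay between them, and Cebpg and Atf5 were below both. Of the 8 genes, 3 (37.5%) were above both and 3 (37.5%) below both, beside 29.7% and 30% of all counted genes. Quantile normalization applied again and loess each gave 4 above both and 2 below both. The share of all counted genes above both was then 36.2% and 34.5%. The median of 0.075 became −0.015 against medium.

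The list of 9 eIF2 kinases and stress brakes holds genes that sense stress or restrain translation and mTORC1. Of these, 3 (33.3%) were above both, near the 29.7% of all counted genes, and 1 (11.1%) was below both, beside 30%. Quantile normalization applied again gave 5 above both (55.6%), beside 36.2% of all counted genes. Sesn2, a leucine-responsive inhibitor of mTORC1, read 11.22, 11.07, 11.32 and 12.03. Ddit4, another mTORC1 inhibitor, read 9.96, 9.74, 9.93 and 11.80, and its GSK-J5 value did not pass medium. The kinase gene Eif2ak2, which responds to double-stranded RNA, read 7.83, 7.71, 7.55 and 7.91, the lowest in GSK-J5. The list's median was 0.05 against DMSO and −0.03 against medium.

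Transporters were higher in GSK-J5 by small amounts. Slc7a1, a cationic amino acid transporter, read 9.99, 9.74, 10.19 and 11.15. Slc1a4, a transporter of alanine, serine and cysteine, read 9.87, 9.70, 10.12 and 11.15, and its relative Slc1a5, a glutamine transporter, 10.23, 10.19, 10.42 and 11.10. For all 3 the order was DMSO, medium, GSK-J5, GSK-J4. Of 7 that passed the filter 6 lay above both, beside 29.7% of all counted genes, and Slc38a2, at −0.06, below both. Slc7a3, Slc7a5 and Slc3a2 lay above the nearer control by only 0.02 to 0.03. Slc7a11, the cystine transporter, read 5.42, 5.04, 5.49 and 7.27, so its controls were under the filter level. The median was 0.175 over the 8 measured and 0.05 against medium.

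Enzymes that make amino acids and one-carbon units showed the pattern in most members. GSK-J5 was above both in 12 of 14 and below both in none, beside 29.7% and 30% of all counted genes. The median was 0.155 against DMSO and 0.12 against medium. Pck2, the mitochondrial PEP carboxykinase, read 9.80, 9.68, 10.12 and 11.33. Psph, the last enzyme of serine synthesis, read 9.07, 8.93, 9.25 and 10.06. Aldh18a1, of proline synthesis, read 11.03, 10.98, 11.29 and 11.85, and Gpt2, an alanine transaminase, 11.11, 11.09, 11.38 and 11.88. In these 4 genes the controls without compound were within 0.14 of each other, and GSK-J5 lay 0.18 to 0.32 above the nearer one. These 4 were named for the largest differences from DMSO in the list, so their margins are no support. Some other members lay closer, such as Cbs and Mthfd1l, at 0.04 and 0.02 above the nearer control. Asns, which makes asparagine, differed by 0.09, and Got1 by 0.00.

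Of 12 genes listed as aminoacyl-tRNA synthetases, which include the tRNA exporter Xpot, 9 were above both and 2, Lars and Wars, below both. The shares were 75% and 16.7%, beside 29.7% and 30% of all counted genes. Sars, the seryl-tRNA synthetase gene, read 12.13, 12.12, 12.38 and 12.79 and had the largest difference, 0.26. At such levels the spread among all genes was small, with an SD of 0.082 in the brightest bin. That SD runs across genes and gives no error for Sars, which was named for its large difference. The list's median was 0.115 against DMSO and 0.055 against medium.

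Other genes known to follow ATF4 had the highest list median, 0.18 against DMSO and 0.23 against medium over 9 measured genes. Vldlr, a lipoprotein receptor, read 6.41, 6.33, 6.79 and 8.09, the controls without compound lying under the filter level. Jdp2, an AP-1 family repressor, read 7.26, 7.13, 7.49 and 8.95. Vegfa, the angiogenic factor, read 8.84, 8.84, 9.11 and 10.22, and Chac1, which degrades glutathione, 9.11, 9.18, 9.44 and 10.54. Niban1, which was 2.87 higher in GSK-J4 than in medium, differed between GSK-J5 and DMSO by 0.01. Sqstm1 and Stbd1 differed from DMSO by −0.07 and −0.15.

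**Figure D3:**
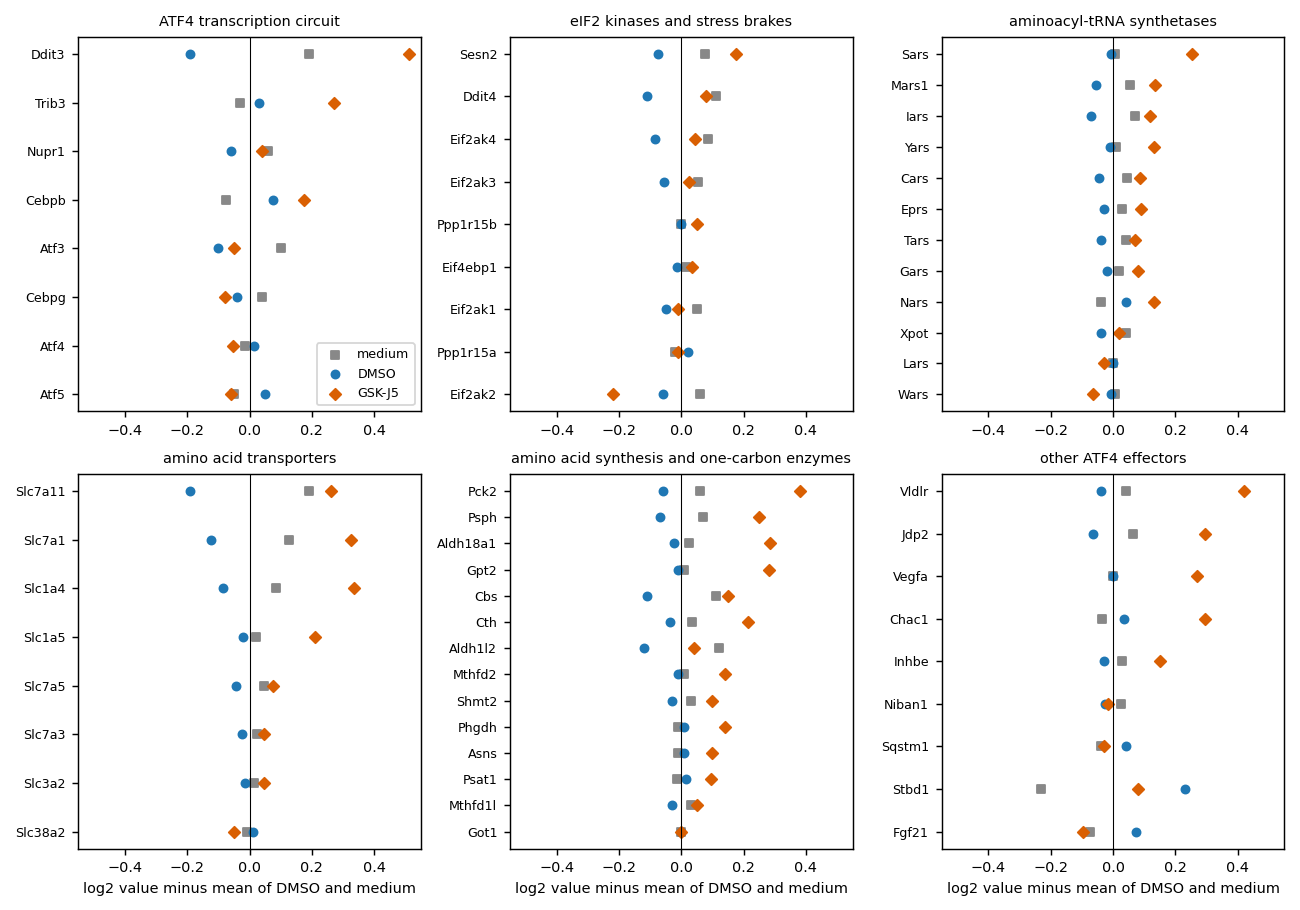
Log2 value minus the mean of DMSO and medium (x axis) for each measured gene of the 6 amino acid response lists, 1 array per treatment, with GSK-J4 left out. GSK-J5 (diamonds) lies right of both other controls in most enzymes, transporters and synthetases, and not in Atf4, Atf5 or Cebpg.

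ATF4 and C/EBP factors bind composite elements, so the promoters of these genes were searched for TGATGNAA on both strands. The motif was chosen after the list values had been seen. The lists gather genes of the ATF4 response, so a raised share of windows with the motif could follow from their make-up alone. That share therefore says nothing about GSK-J5. RefSeq promoter windows (GRCm38.p6, 250 bases before to 50 after a gene's start) matched 49 of the 60 genes with 57 windows, and 17 windows (29.8%) held the motif, against 3.97% of all 32851 windows and 2.25% of those of counted genes. The 17 genes had a median GSK-J5 minus DMSO difference of 0.18, and 13 lay above both controls. The 32 matched genes without it had a median of 0.11, and 18 lay above both. The windows below are printed on the gene's strand, with the motif in capitals, for 4 genes above both controls in GSK-J5 and for Nupr1, which was not. A match of letters is a description of sequence and was not tested as a binding site.
Vldlr, chr19:27216796-27216851: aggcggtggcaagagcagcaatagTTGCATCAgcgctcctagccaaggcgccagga
Pck2, chr14:55540139-55540194: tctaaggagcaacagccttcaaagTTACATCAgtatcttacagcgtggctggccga
Jdp2, chr12:85599359-85599414: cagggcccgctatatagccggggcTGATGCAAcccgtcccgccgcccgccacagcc
Chac1, chr2:119351025-119351080: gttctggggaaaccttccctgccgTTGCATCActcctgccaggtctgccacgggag
Nupr1, chr7:126625549-126625604: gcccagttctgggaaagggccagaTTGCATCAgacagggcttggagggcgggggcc

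The motif starts 200 bases before the annotated start in Vldlr, 103 in Pck2, 33 in Jdp2, 193 in Chac1 and 110 in Nupr1. Vldlr, Pck2, Jdp2 and Chac1 lie on the + strand and Nupr1 on the − strand.

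The targets of the active compound differed little. Kdm6a read 12.07, 12.07, 12.03 and 12.08, Uty, its Y-linked relative, 10.46, 10.47, 10.39 and 10.54, and Kdm6b 9.77, 9.84, 9.82 and 10.22. The 14 KDM6 and PRC2 genes had a median GSK-J5 minus DMSO difference of −0.005, with 3 above both controls and 3 below both. Over all counted genes the shares were 29.7% and 30%. Phf1, a PRC2 accessory subunit, differed most and read 7.56, 7.42, 7.76 and 7.95. Other JmjC demethylases had a median of −0.01.

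Genes that were lower with GSK-J4 had small shifts in GSK-J5. Of 19 sterol synthesis genes, none was above both controls and 10 were below both, beside 30% of all counted genes. Insig1, which holds back sterol synthesis when sterols are plentiful, read 11.38, 11.42, 11.10 and 10.71, and Stard4, a sterol transfer gene, 8.62, 8.69, 8.41 and 8.29. The list's median was −0.04 against DMSO and −0.09 against medium. With quantile normalization applied again, 1 sterol gene was above both. Of 10 neuroectoderm genes that passed the filter 7 were below both, with Hes5, a Notch target, at 7.23, 7.40, 7.10 and 7.07. Of 23 formative and epiblast genes 12 were below both and 2 above both; Fgf5 read 8.82, 8.83, 8.66 and 7.23, and Pou3f1 9.30, 9.49, 9.24 and 8.45. The median of these genes was −0.02.

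Among p53 targets, 13 of 36 (36.1%) were above both controls in GSK-J5, near the 29.7% of all counted genes, and 7 (19.4%) were below both, beside 30%. Pmaip1, which encodes the cell death protein NOXA, read 8.14, 8.03, 8.30 and 8.37, and Phlda3, an inhibitor of AKT, 10.10, 10.05, 10.30 and 11.50. Cdkn1a, the p21 gene, read 10.80, 10.75, 10.76 and 11.83, and Mdm2 was equal in GSK-J5 and DMSO. The median was 0.06 against DMSO and −0.03 against medium. Of 23 endoplasmic reticulum chaperone and unfolded protein response genes, Herpud1, of protein degradation there, was the only one above both, at 10.42, 10.27, 10.57 and 11.26; loess gave 4 above both. Hspa5, the chaperone BiP, read 10.54, 10.42 and 10.50 in the controls, and the list's median was −0.03.

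Lists for handling of foreign compounds showed smaller differences. Genes of xenobiotic response and drug efflux had a median of 0.01 over 22 measured genes, but only 11 passed the filter. Those that did not included Cyp1a1, Cyp1b1 and Cyp3a11. NRF2 antioxidant genes had a median of 0.00 over 15 and metal and iron response genes 0.00 over 14. Esterase genes, which belong to the class of enzymes that cleave such prodrugs, had a median of 0.01, but only 5 of 25 passed the filter. Of 36 lists, 5 had a median of at least 0.1 and 1, the Tcl1 family, of −0.1 or less, a line drawn after the values were seen. The Tcl1 median of −0.145 over 6 genes was 0.01 against medium.

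**Figure D4:**
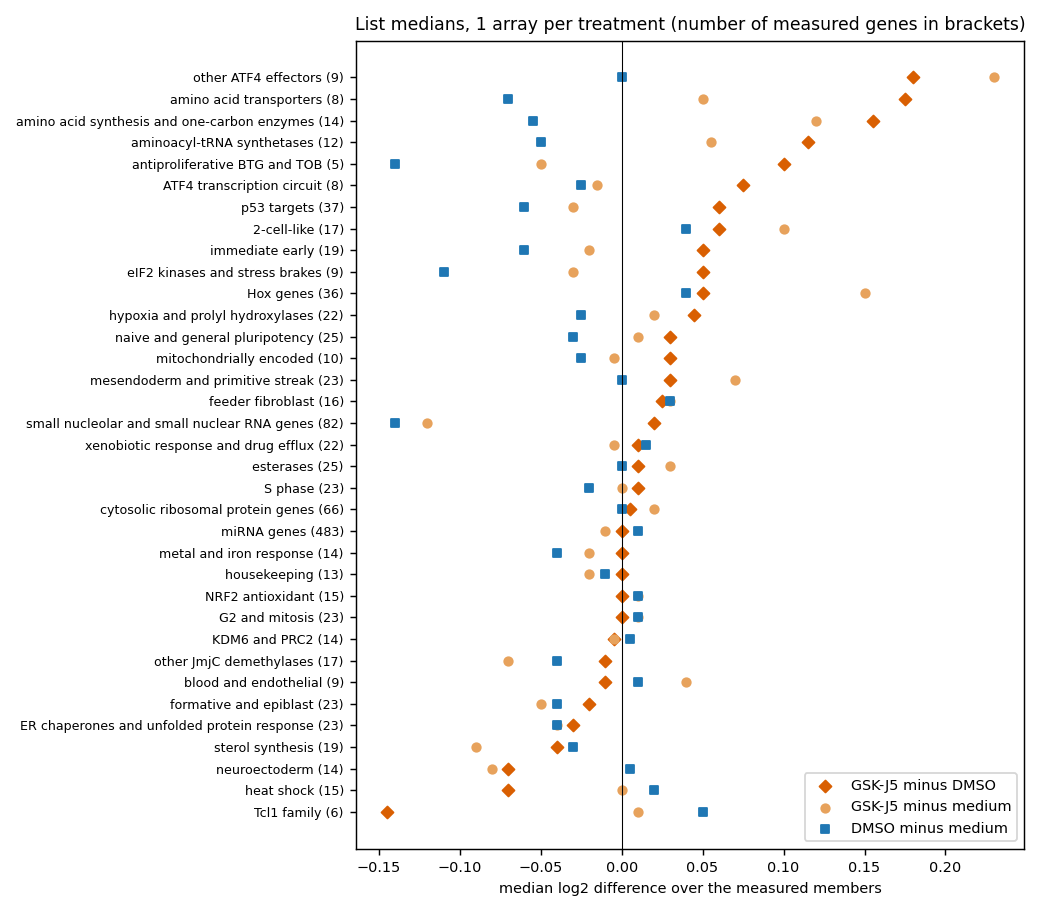
Median log2 difference (x axis) over the measured members of each gene list (y axis, number of genes in brackets), for GSK-J5 minus DMSO (diamonds), GSK-J5 minus medium (circles) and DMSO minus medium (squares), 1 array per treatment. The highest medians for GSK-J5 minus DMSO are those of the other ATF4 effectors (0.18), transporters (0.175) and synthesis enzymes (0.155).

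Genes chosen by GSK-J4 were then read in GSK-J5 with arrays that the choice had not used. The 99 genes at least 2-fold higher in GSK-J4 than in medium (0.744%) had a median GSK-J5 minus DMSO difference of 0.09, and 73 (73.7%) lay above 0, against 52.1% of all counted genes. Only Ddit3 passed 1.5-fold, and the median GSK-J4 minus medium difference of these genes was 1.19. The 37 genes at least 2-fold lower in GSK-J4 (0.278%) had a median of −0.07, and 27 (73%) lay below 0, against 43.8%. With the controls exchanged, the 112 genes higher in GSK-J4 than in DMSO (0.841%) had a median GSK-J5 minus medium difference of −0.02, and 42.9% lay above 0, against 43.4% of all counted genes. The 31 lower genes (0.233%) had a median of −0.11, and 24 (77.4%) lay below 0, against 52.6%. Exchanging the controls changed both the genes chosen and the reference of the readout, so these cannot be told apart. Some of the higher genes, such as Cyb5r2, Trim66 and B4galnt2, passed the filter only through GSK-J4. With the filter mean taken without that array, 90 genes were higher than in medium, with a median of 0.09 and 67 (74.4%) above 0, and 104 were higher than in DMSO, with a median of −0.025 and 41.3% above 0. The lower genes gave the values above under that filter.

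**Figure D5:**
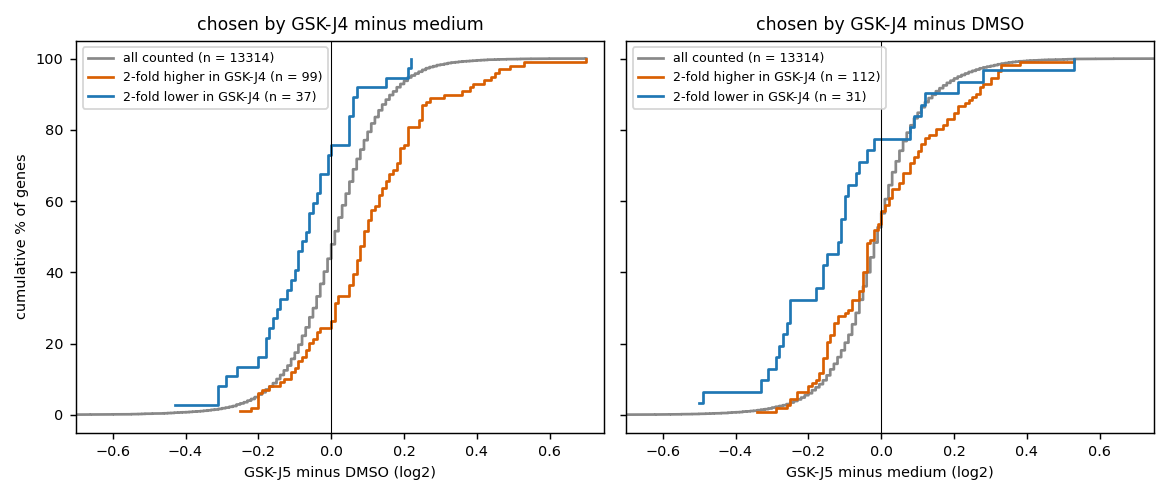
Cumulative percentage of genes (y axis) by GSK-J5 minus DMSO (left x axis) and GSK-J5 minus medium (right x axis), on the log2 scale, for genes 2-fold higher or lower in GSK-J4 and for all counted genes. The higher genes lie right of all genes on the left panel (median 0.09) and not on the right (−0.02), and the lower genes lie left on both (−0.07 and −0.11).

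Within the 99, the largest GSK-J5 differences after Ddit3 belonged to Cyb5r2 (0.53), Stc2 (0.49), Vldlr (0.46), Slc7a1 (0.45), Pck2 (0.44) and Slc1a4 (0.42). B4galnt2, with the largest GSK-J4 minus medium difference at 3.19 and controls under the filter level, differed by −0.08, and Plk2, a p53 target at 1.84, by 0.08. At matched dose and time the compounds thus read apart: GSK-J4 minus GSK-J5 gave 437 higher genes (3.28%) and 185 lower (1.39%) by 1.5-fold, with no interval for the difference since each compound had 1 array.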

How the data were processed

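Total RNA from the 4 treatments was hybridised to Affymetrix arrays. The deposited values are log2 expression values per probe set; for their making the submitters' processing notes name RMA and Affymetrix Expression Console, version 1.2.1.20. RMA subtracts background, gives the arrays a common distribution and summarises probes, so a change in total RNA is not visible. The log base was inferred from the range, 2.20 to 14.48, and every fold rests on it. No source used here gives a genome build for the arrays, and the precision is limited by the number of arrays.

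Of 41345 probe sets, 23521 carried 1 gene symbol in the platform annotation, 1814 several and 16010 none. Differences between arrays were taken with Python 3.11.15, pandas 2.3.3 and numpy 2.4.6 and described by size, without a test. A gene was called at 1.5-fold, and lists were described by medians over measured members. The steps were checked on simulated data. Depth has no meaning for these intensities.

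Genes named are the top 20 and bottom 20 of GSK-J5 minus DMSO, passing over unnamed transcripts; the top 5 and bottom 5 of DMSO minus medium; those 1.5-fold outside both other controls in GSK-J5; up to 4 members per list with the largest differences; and all ATF4 circuit, KDM6 and Tcl1 family members. Other genes were named after their values were seen. The comparison, members and lists were chosen with earlier results of these data known. Alternatives were no filter, a 60th percentile filter, median centring, quantile normalization, loess (span 0.3), the median over probe sets, 2-fold, and medium or the mean of medium and DMSO as reference.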

Additional observations from a re-analysis of the deposited data

Results flagged for a closer look

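Probe sets without a single gene symbol stayed out of the comparisons. Among the 7018 of them at or above the filter level, 102 (1.453%) read at least 1.5-fold below both DMSO and medium in GSK-J5, more than in the same count for the medium array, 46 (0.655%), or the DMSO array, 42 (0.598%). In the other direction GSK-J5 gave 16, medium 84 and DMSO 49. With 1 array per treatment the difference was not tested, and these probe sets were not named.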

How the results depend on the processing

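Median centring, quantile normalization and loess left the counts, list medians and all 197 named genes within the tolerances used, which were set after the data were seen. The tolerances limit the size of a move, so values near 0 may still change sign. Of the named genes, 86 moved and 3 reversed with medium as reference, 44 moved with the mean of medium and DMSO, and 7 moved with the median over probe sets. A reversal was counted only where the difference from DMSO reached 1.5-fold, so smaller differences that changed sign are not among the 3. With medium as reference, Cox4i2 went from 0.53 to −0.02 and Grb14 from −0.34 to 0.41. Under median centring, quantile normalization and loess, GSK-J5 lay above both other controls in 38 to 41 of 58 amino acid response genes. The share of all counted genes was 28.7% to 36.2%. The counts depended on the filter and the fold. For GSK-J5 minus DMSO, higher and lower genes numbered 113 and 119 with no filter, 1 and 5 with the 60th percentile filter, and 0 and 1 at 2-fold; for DMSO minus medium they numbered 161 and 133, 6 and 0, and 0 and 0. With medium as reference 12 genes were higher in GSK-J5, and with the mean of medium and DMSO 1 was higher and 6 lower. With medium as reference 10 of the 36 list medians moved and 2 reversed, and with the mean 4 moved. A list was counted as reversed only if its median against DMSO was at least 0.1 in either direction. Smaller medians also changed sign with medium as reference, such as p53 targets from 0.06 to −0.03 and immediate early genes from 0.05 to −0.02. Among those changed by medium, the median became −0.015 for the ATF4 circuit (−0.005 with the mean) and −0.03 for eIF2 kinases and brakes. It became 0.055 for synthetases, 0.05 for transporters, 0.01 for the Tcl1 family and −0.05 for BTG and TOB genes. Genes higher in GSK-J4 gave −0.02 when chosen against DMSO and read against medium, another set of genes as well as another reference. With medium as reference the difference was −0.08 for Ly6g5c, −0.3 for Mir302c and 0.07 for Rps13. The 60th percentile filter moved 5 list medians and reversed 1. Among these it gave 0.12 for transporters and 0.19 for the Tcl1 family, where fewer genes were left. Beyond the smaller gene sets, the cause was not tested. No paired analysis was possible because each treatment has 1 array and the labels give no replicate numbers. Signal over background was not examined, so values near the filter level are limits of size.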

Other observations

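MiRNA genes inside the Polycomb-related gene Sfmbt2 that passed the filter were mostly lower in GSK-J5, a group chosen after the values were seen. RefSeq places 72 miRNA genes of the Mir297, Mir466, Mir467 and Mir669 families inside Sfmbt2, of which 22 were measured and 17 passed the filter. GSK-J5 lay below both DMSO and medium in 15 of the 17 (88.2%), against 42 of the other 121 miRNA genes (34.7%) and 30% of all counted genes. It lay above both in 0, against 29.7% of all counted genes. Under the filter, Mir466o, Mir467d and Mir669b were higher in GSK-J5 than in DMSO, and Mir466g and Mir669m-2 lower. The median over the 17 was −0.29 against DMSO and −0.25 against medium, and 0.05 for DMSO minus medium. The host gene Sfmbt2 read 10.85 in medium, 10.85 in DMSO, 10.94 in GSK-J5 and 10.74 in GSK-J4. Mir669k read 10.45, 10.58, 10.28 and 10.18, and Mir467e 7.31, 7.45, 7.01 and 7.97. The 36 probe sets of these genes carried 26 distinct sets of values, so they are not all separate measurements. Under median centring, quantile normalization and loess, 15 or 16 of the 17 lay below both.

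Hox genes, regulators of position along the body axis, had a median GSK-J5 minus medium difference of 0.15 and GSK-J5 minus DMSO difference of 0.05 over 36 measured genes. Only 12 passed the filter, and 7 of these lay above both controls and 0 below both, where 29.7% of all counted genes lay above both and 30% below both. Small nucleolar and small nuclear RNA genes had a median of −0.14 for DMSO minus medium, −0.12 for GSK-J5 minus medium and 0.02 for GSK-J5 minus DMSO over 82 measured genes.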
